A study of Rattus norvegicus with 12 samples.

Results

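The enzymes that turn squalene into cholesterol were described here at the level of their transcripts in rat liver. The set holds 10 genes, chosen by name: Sqle, Lss, Cyp51, Tm7sf2, Msmo1, Nsdhl, Hsd17b7, Ebp, Sc5d and Dhcr7. All probe sets that the platform annotation maps to one of these symbols alone were taken, which gave 16 probe sets. Of the genes, 5 had 1 probe set, 4 had 2 and 1 had 3. All 10 genes were among the 9300 genes tested, each through its brightest probe set, and 15 of the 16 probe sets passed the filter on low signal (a mean signal of at least 19.67 over all arrays).

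Liver RNA was hybridised to 1-colour Affymetrix arrays, with 1 array per animal and 12 arrays in all. The first comparison set 3 germ-free Sprague-Dawley rats (animals 1, 3 and 4), which carry no microbes, against 3 conventional Sprague-Dawley rats that were not germ-free (animals 6, 7 and 8). The second set 3 Han Wistar rats that drank water with streptomycin and penicillin for 8 days (animals 13, 14 and 15) against 3 Han Wistar rats without antibiotic (animals 1, 2 and 3). Neither comparison shares arrays with the other, and strain goes with the comparison, so the strains were not set against each other. The labels name no age, sex, diet or hour of tissue collection, and none of these can be told apart from the germ-free or antibiotic state. No batch of extraction or scanning is named either.

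Cholesterol is built from acetyl-CoA by way of mevalonate to squalene, a chain with no rings. Squalene is then oxidised, folded into the sterol lanosterol, stripped of its extra methyl groups and rearranged in its double bonds until cholesterol is left. The liver is a main site of this synthesis. When sterols in the endoplasmic reticulum run low, the membrane-bound transcription factor SREBP-2, product of Srebf2, is released and raises the genes of the whole route; Insig proteins hold it back when sterols are ample. SREBP-2 is known to act at promoters together with NF-Y, a factor that binds the letters CCAAT.

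These genes are known as targets of shared factors, and the stretch just upstream of their starts is shown for 8 of them. Whether these sequences have a part in the changes described below was not tested. RefSeq windows of 300 bases (250 before and 50 after the start, build GRCr8) were found for 9 of the 10 genes. The letters CCAAT stood on either strand of 7 of these 9 windows, in Lss, Tm7sf2, Msmo1, Nsdhl, Hsd17b7, Ebp and Sc5d, against 37.7% of 27457 windows of the same length (1 per gene) and 38.4% of those of the tested genes. In 6 of the 9 it was read on the reverse strand (ATTGG) with its first base between 92 and 82 bases before the start, at -82 in Lss, -89 in Tm7sf2, -91 in Nsdhl, -86 in Hsd17b7, -85 in Ebp and -87 in Sc5d. That range of positions was set after the windows were seen. ATTGG stood there in 1.36% of all windows and 1.75% of those of the tested genes. The Sp1 letters GGGCGG stood in 8 of 9 windows, against 34.9% of all windows and 63.4% of those of the tested genes. The sterol element letters TCACCCCAC and TCACNCCAC (the second holds the first), the E-box TCACGTGA and the cyclic AMP element TGACGTCA were in 0 of 9 windows, and in 0.495%, 1.13%, 0.867% and 1.91% of all windows. Among windows of the tested genes the shares were 0.357%, 1.08%, 1.81% and 3.3%. A match is a description of the sequence and not a bound site, and no match says only that these letters are not in this window. The 60 bases from -120 to -61 are printed below on the strand of the gene, with CCAAT or its reverse complement in capitals, first for 6 of the 7 genes with a match in this stretch and then for Cyp51 and Dhcr7, whose windows held no CCAAT. The stretch of Ebp, the other gene with a match (ATTGG at -115 and -85), is not printed.
Lss (chr20:12118291-12118350, minus strand): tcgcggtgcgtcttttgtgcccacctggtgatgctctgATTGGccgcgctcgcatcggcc
Tm7sf2 (chr1:212789602-212789661, minus strand): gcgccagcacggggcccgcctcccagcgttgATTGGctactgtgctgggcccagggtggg
Msmo1 (chr16:29746993-29747052, plus strand): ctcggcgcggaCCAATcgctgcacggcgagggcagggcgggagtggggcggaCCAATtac
Nsdhl (chrX:155817240-155817299, plus strand): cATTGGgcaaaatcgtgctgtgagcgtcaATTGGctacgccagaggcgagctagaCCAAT
Hsd17b7 (chr13:84722815-84722874, minus strand): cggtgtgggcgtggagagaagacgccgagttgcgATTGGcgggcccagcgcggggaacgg
Sc5d (chr8:51538338-51538397, minus strand): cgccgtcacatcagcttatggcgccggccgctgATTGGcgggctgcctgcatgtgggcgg
Cyp51 (chr4:30991573-30991632, plus strand): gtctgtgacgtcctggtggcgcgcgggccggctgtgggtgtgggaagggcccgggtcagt
Dhcr7 (chr1:208444314-208444373, plus strand): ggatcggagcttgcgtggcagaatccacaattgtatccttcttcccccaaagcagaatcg

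In germ-free livers 9 of the 10 genes fell and none rose; Nsdhl did not pass. Of all 9300 genes, 6.74% were called lower by the same rule, limma at an adjusted p under 0.05, and 6.44% were called higher. The median log2 fold change was -1.02 over the 10 genes and 0.02 over all genes tested. Sqle, Cyp51, Msmo1 and Tm7sf2 fell by more than 4-fold, which 0.237% of all genes did on the same scale, and with Dhcr7 there were 5 genes past 2-fold, against 1.43% of all genes. For 9 of the 10 genes, all but Lss, every germ-free animal lay below every conventional animal, which held for 14.5% of all genes. Fold changes are differences of log2(signal + 16), which understates the change of dim genes, and signals of different genes are not compared because probe sets differ in brightness. Each p weighs a difference by a spread among animals within groups that is estimated over all 4 groups, not only the 2 compared. Livers were measured whole, so fewer cells of a type and less RNA per cell cannot be told apart.

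**Figure D1:**
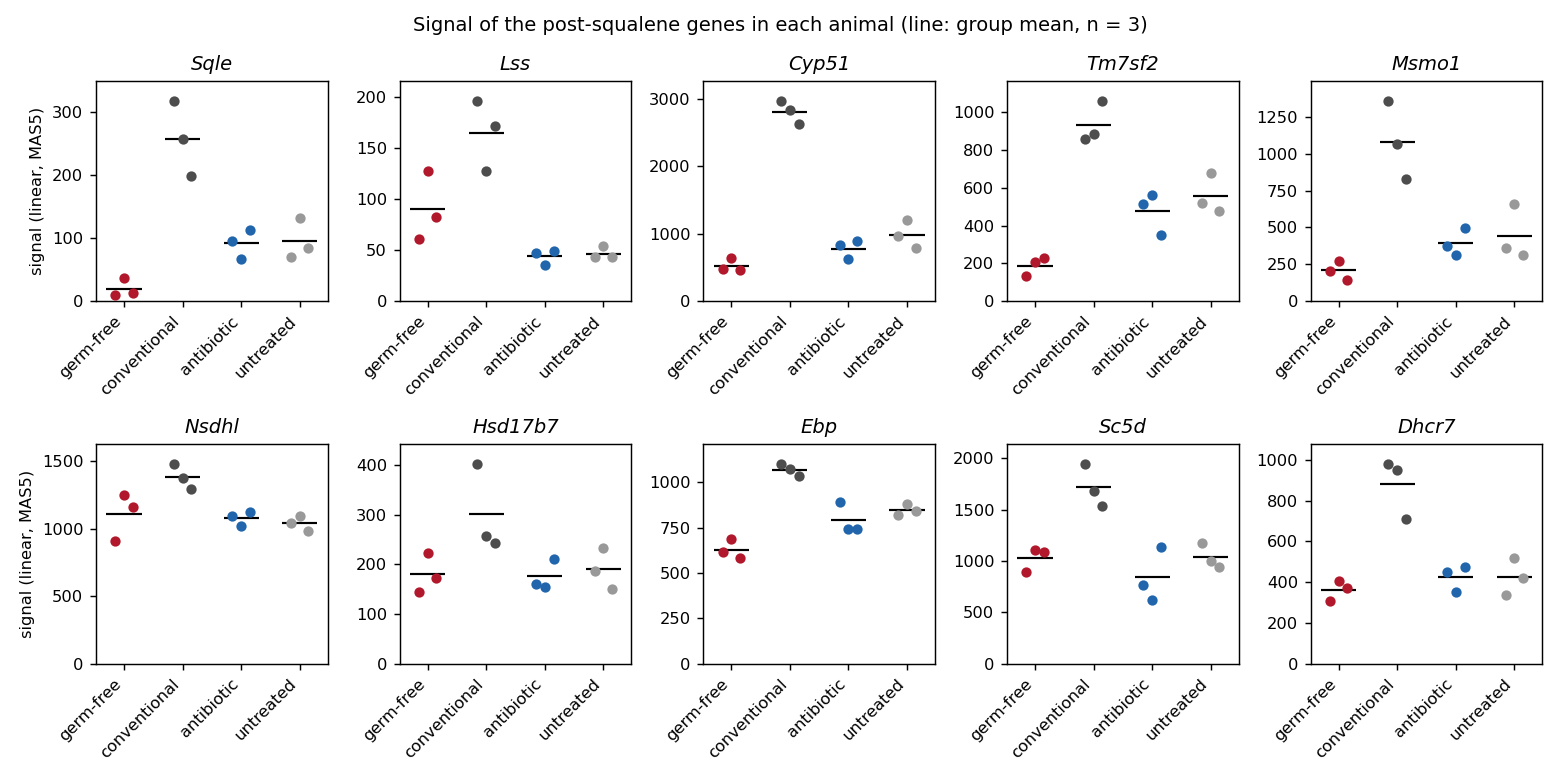
Signal of each gene's brightest probe set (linear MAS5 units, axis from 0) in every animal, with germ-free and conventional Sprague-Dawley rats and then antibiotic-treated and untreated Han Wistar rats from left to right; lines are group means of 3 animals. In germ-free livers the points of Sqle, Cyp51, Tm7sf2 and Msmo1 lie far below those of conventional livers, while antibiotic and untreated points overlap in all 10 panels.

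The branch opens with Sqle, squalene epoxidase, which adds the first oxygen and is a rate-limiting step. Its signal was 9.2, 36.2 and 12.3 in germ-free animals 1, 3 and 4, against 316.8, 255.9 and 197.8 in conventional animals 6, 7 and 8. The germ-free mean stood at 7.49% of the conventional one, and only 6 of the 9300 genes had a lower log2 fold change (-3.01 ± 0.27 (SE), adjusted p = 1.85e-05 by limma). With 2 of the 3 germ-free values under the filter value, the size depends on the offset, giving -3.88 on the log2 scale at an offset of 1 and -1.94 at 64. Lss, the cyclase that folds the epoxide into lanosterol, had a change nearer to 0. It had signals of 60.9, 127.4 and 82.1 in germ-free livers, against 196.1, 127.1 and 171.2 in conventional livers. Germ-free animal 3 and conventional animal 7 were level, so the groups touched (log2 change -0.80 ± 0.21, adjusted p = 0.0209 by limma). Lss no longer passed when germ-free animal 1 (adjusted p = 0.0719) or 4 (0.0646) was left out, nor when conventional animal 6 (0.0746) or 8 (0.0597) was. It also missed the threshold in the fit of its own 6 arrays (0.0568) and with array weights (0.0819).

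Next in line, Cyp51 is the cytochrome P450 that removes a methyl group from lanosterol, and Tm7sf2 is the reductase that closes the double bond this leaves. Cyp51 signals were 469.6, 631.4 and 460.1 in germ-free livers and 2965.0, 2831.1 and 2618.8 in conventional livers. The highest germ-free value was thus far below the lowest conventional one, and the smallest p of the set belonged to this gene (log2 change -2.41 ± 0.17, adjusted p = 3.55e-06 by limma). Its brightest probe set carries the suffix that Affymetrix gives to probe sets matching several transcripts, so signal from near-identical sequences cannot be set apart. Tm7sf2 signals were 133.5, 205.2 and 225.8 in germ-free livers, against 858.3, 886.9 and 1060.4 in conventional livers (log2 change -2.24 ± 0.20, adjusted p = 1.53e-05 by limma). Every germ-free animal was far below every conventional one.

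The remaining methyl groups are removed by 3 enzymes in turn, and their transcripts moved by unequal amounts. Msmo1, the methyl sterol oxidase that starts each round, had signals of 204.1, 275.6 and 144.0 in germ-free livers and 1359.7, 1064.4 and 829.1 in conventional livers (log2 change -2.31 ± 0.27, adjusted p = 0.000151 by limma). Hsd17b7, the ketosteroid reductase that ends the round, had 145.1, 222.8 and 173.6 in germ-free livers, against 402.9, 257.5 and 243.0 in conventional livers. Its groups came close to each other, with germ-free animal 3 just under conventional animal 8 (log2 change -0.67 ± 0.20, adjusted p = 0.0432 by limma). Hsd17b7 missed the threshold in 11 of 25 alternatives. They include leaving out germ-free animal 1 (adjusted p = 0.129) or 4 (0.104), conventional animal 6 (0.147) or 7 (0.0553), untreated animal 1 (0.0561), and antibiotic animal 13 (0.0536) or 14 (0.051). Nsdhl, the dehydrogenase between these steps, had 912.6, 1251.9 and 1160.3 in germ-free livers, against 1483.0, 1379.7 and 1297.2 in conventional livers. Here the groups were separate but near, and the brightest probe set did not pass (log2 change -0.33 ± 0.11, adjusted p = 0.0705 by limma).

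The route ends with an isomerase, Ebp, which shifts a ring double bond, a desaturase, Sc5d, and a reductase, Dhcr7, which makes cholesterol from its last precursor. Ebp had signals of 617.7, 687.7 and 581.2 in germ-free livers, against 1103.3, 1073.1 and 1037.7 in conventional livers. Animals of a group differed little in this gene, and a modest fall passed with a small p (log2 change -0.76 ± 0.10, adjusted p = 0.000274 by limma). Dhcr7 had 308.6, 405.8 and 372.7 in germ-free livers and 980.3, 949.6 and 709.6 in conventional livers, so that the germ-free mean was 41.2% of the conventional one (log2 change -1.24 ± 0.17, adjusted p = 0.000426 by limma). Sc5d had 893.2, 1109.6 and 1082.9 in germ-free livers, against 1945.8, 1675.8 and 1531.1 in conventional livers (log2 change -0.73 ± 0.18, adjusted p = 0.0163 by limma). Leaving out germ-free animal 1 (adjusted p = 0.0536) or conventional animal 6 (0.0583) ended the Sc5d call.

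**Figure D2:**
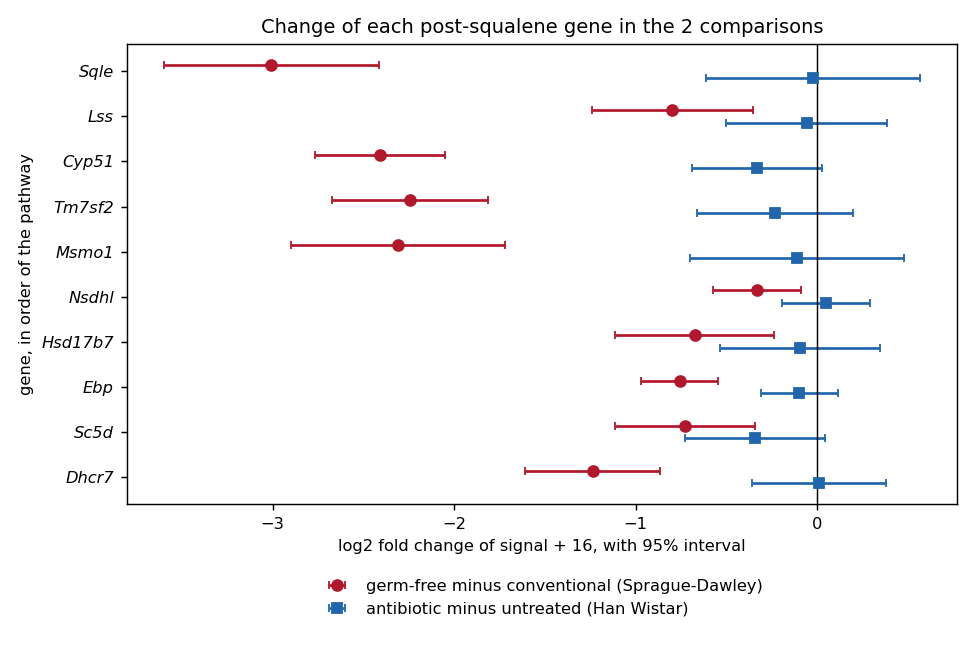
Log2 fold change of signal + 16 for each gene, in the order of the pathway from top to bottom, with 95% intervals from the limma fit; circles are germ-free minus conventional and squares antibiotic minus untreated. The germ-free intervals of Sqle, Cyp51, Tm7sf2 and Msmo1 end at or below -1.72, and every antibiotic interval spans 0. Intervals are not adjusted for the number of genes tested.

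In antibiotic-treated livers 0 of the 10 genes passed limma's test, 0 had an unadjusted p under 0.05, and 0 had groups without overlap. Over all genes, 0.0215% were called in that comparison (2 of 9300), 969 had an unadjusted p under 0.05, and groups did not overlap for 18.3%. The log2 changes of the 10 genes lay between -0.34 and 0.05, with a median of -0.10 against 0.00 over all genes, and 8 of them were below 0. A p that misses the threshold does not show that the groups were alike, and the intervals give what the data allow. For Sqle, signals were 95.3, 66.5 and 112.9 in antibiotic-treated livers, against 69.4, 130.8 and 83.5 in untreated livers. The treated values lay inside the untreated range but for animal 14 (log2 -0.03, 95% interval -0.62 to 0.56). Cyp51 had 824.9, 621.7 and 885.2 in antibiotic-treated livers and 961.9, 1208.4 and 788.6 in untreated livers (log2 -0.33, interval -0.69 to 0.03). Msmo1 had 372.7, 315.0 and 493.9 in antibiotic-treated livers and 359.2, 657.1 and 310.7 in untreated livers (log2 -0.11, interval -0.70 to 0.48). Both groups spread widely in these genes, and untreated animal 2 stood highest in each. The tightest interval was that of Ebp, with 892.9, 745.2 and 741.8 in antibiotic-treated livers against 819.9, 883.4 and 841.6 in untreated livers (log2 -0.10, interval -0.31 to 0.11).

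The remaining genes did not pass either, with changes of unequal size. Tm7sf2 had 512.2, 563.8 and 352.8 in antibiotic-treated livers and 518.1, 679.5 and 474.9 in untreated livers (log2 -0.23, interval -0.66 to 0.20). Sc5d had the lowest change of the set, with 767.8, 615.5 and 1136.6 in antibiotic-treated livers and 1177.3, 999.4 and 944.7 in untreated livers (log2 -0.34, interval -0.73 to 0.04). Animals 13 and 14 were below all untreated animals for this desaturase and animal 15 was not. Dhcr7 had 450.4, 350.2 and 475.3 in antibiotic-treated livers and 337.2, 520.3 and 418.6 in untreated livers, a log2 value of 0.01 (interval -0.36 to 0.38). Lss had a log2 value of -0.06, Hsd17b7 of -0.09 and Nsdhl of 0.05. The signs of Sqle, Lss, Msmo1, Hsd17b7 and Dhcr7 turned when 1 animal was left out, as the closing values show.

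The difference between the 2 comparisons was tested in the same fit, as the germ-free change minus the antibiotic change. It passed for 6 of the 10 genes, all more negative in the germ-free comparison, while 3.25% of all genes passed in that direction. Sqle differed by -2.98 ± 0.39 (log2 ± SE), Msmo1 by -2.20 ± 0.39, Cyp51 by -2.08 ± 0.24, Tm7sf2 by -2.01 ± 0.28, Dhcr7 by -1.25 ± 0.24 and Ebp by -0.66 ± 0.14. Their adjusted p by limma ran from 0.000287 for Cyp51 to 0.015 for Ebp. For the other 4 genes the difference did not pass after adjustment over all genes. The intervals are not adjusted in that way, and those of Lss and Nsdhl lie below 0. Its 95% interval was -1.37 to -0.11 for Lss (adjusted p = 0.16), -0.72 to -0.04 for Nsdhl (0.188), -1.20 to 0.04 for Hsd17b7 (0.272) and -0.93 to 0.16 for Sc5d (0.42). Strain and experiment go with the comparison, so they cannot be told apart from the difference between germ-free rearing and antibiotic.

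**Figure D3:**
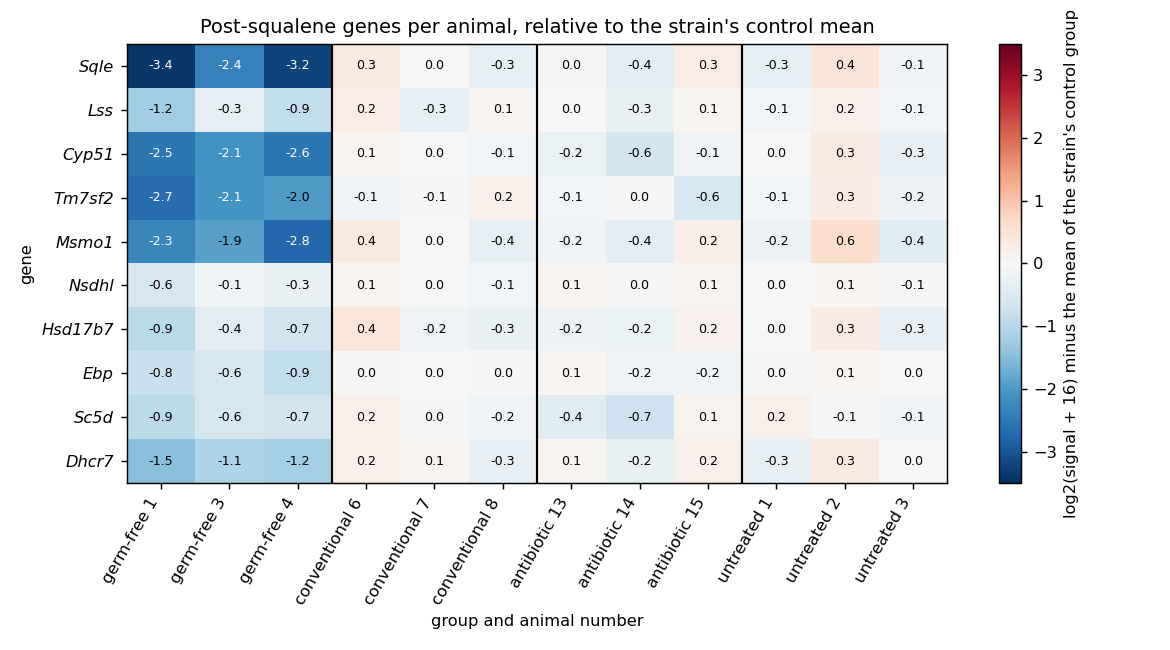
Each gene's log2(signal + 16) in each animal minus the mean of that strain's control group (conventional or untreated), with germ-free, conventional, antibiotic and untreated animals from left to right. The 3 germ-free columns are blue in every row, deepest for Sqle. The blue is pale for Nsdhl, at -0.59, -0.14 and -0.25 in germ-free animals 1, 3 and 4. Within a group the same animals tend to be high or low in several rows.

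Within each group the 10 genes tended to rank the animals alike. Germ-free animal 3 was the highest of its group for 9 of the 10 genes and animal 1 the lowest for 7. Conventional animal 6 was highest for 9 and animal 8 lowest for 8. Among antibiotic-treated rats animal 15 was highest for 8 and animal 14 lowest for 8, and among untreated rats animal 2 was highest for 9 and animal 3 lowest for 6. The median deviation from the group mean was 0.24 on the log2 scale for germ-free animal 3 and -0.24 for animal 1, -0.24 for antibiotic animal 14 and 0.29 for untreated animal 2. Over all genes the median deviation lay between -0.03 and 0.02 on the 12 arrays. Genes of one array share its RNA and its labelling, so this agreement is a description with no test.

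Several of the genes were read by more than 1 probe set, and these did not always give the same size. In a fit of all 15523 passing probe sets, 12 of the 15 tested probe sets of the set fell in germ-free livers, against 5.39% of all probe sets. The second Cyp51 probe set gave 123.7, 215.5 and 143.9 in germ-free livers and 678.2, 547.1 and 516.7 in conventional livers (log2 change -1.78 ± 0.23, adjusted p = 0.000298 by limma). As with the brighter one, the groups lay far apart. The dimmer Nsdhl probe set did pass, with 779.4, 915.5 and 820.1 in germ-free livers and 1347.3, 1287.8 and 1140.3 in conventional livers (log2 change -0.58 ± 0.12, adjusted p = 0.00817 by limma). The dimmer Hsd17b7 probe set also fell (log2 change -1.05 ± 0.18, adjusted p = 0.0022 by limma), with 53.1, 48.7 and 42.2 in germ-free livers, against 150.6, 111.3 and 93.4 in conventional livers. For the difference between the comparisons 9 of the 15 probe sets passed, against 2.56% of all probe sets, and these dimmer ones of Nsdhl and Hsd17b7 were among them (adjusted p = 0.047 and 0.0221 by limma), unlike their brighter ones.

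In the germ-free comparison Sc5d was the only gene of the set whose tested probe sets pointed in different directions. Its second probe set had a log2 value of -0.57 ± 0.19 (adjusted p = 0.0713 by limma). Signals there were 835.4, 1241.2 and 1193.3 in germ-free livers and 1705.7, 1664.4 and 1449.2 in conventional livers, so the groups were separate. The third and dimmest had 370.6, 897.0 and 518.1 in germ-free livers and 413.2, 470.4 and 400.5 in conventional livers, a log2 value of 0.37 ± 0.26 (adjusted p = 0.372 by limma). Germ-free animal 3 stood highest in that probe set and animal 1 below all conventional animals. Sc5d was thus called lower through its brightest probe set alone. With the mean of the 3 probe sets its log2 value was -0.31 (adjusted p = 0.332). The probe set that did not pass the filter, the dimmer of Lss, gave 10.2, 21.8 and 15.8 in germ-free livers and 79.6, 24.7 and 48.7 in conventional livers. In Han Wistar livers it gave no more than 3.6, with 2.1, 2.2 and 3.2 in antibiotic-treated and 3.6, 1.8 and 1.9 in untreated animals, while the brighter Lss probe set gave 35.5 to 49.5 in antibiotic-treated and 42.7 to 53.8 in untreated animals.

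**Figure D4:**
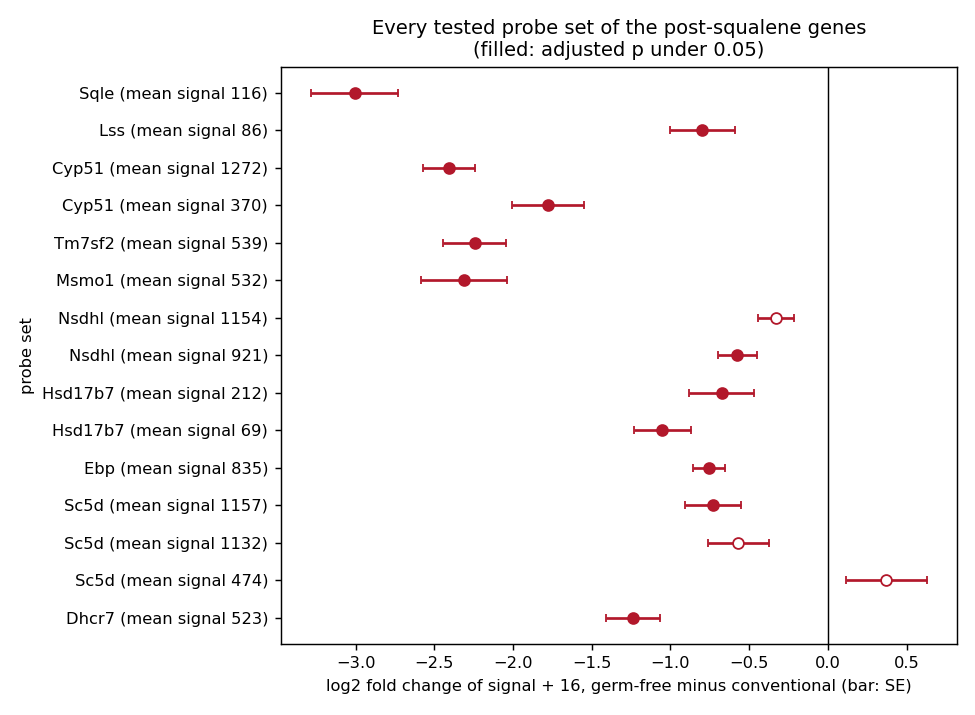
Log2 fold change of signal + 16, germ-free minus conventional, for each of the 15 tested probe sets (bars are SE; filled points have an adjusted p under 0.05 over 15523 probe sets), labelled with gene and mean signal over 12 arrays. Of these, 14 lie below 0 and the dimmest Sc5d probe set lies above it.

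The steps before squalene and the genes that serve or control the route were read as lists. Of 7 tested genes from acetyl-CoA to squalene 5 fell, 0 rose and 2 did not pass in germ-free livers (median log2 -1.12, against 0.02 over all genes). The isomerase gene Idi1 had the lowest value (log2 -2.64 ± 0.23), with a signal that averaged 199 ± 55.8 in germ-free livers, against 1321 ± 301 in conventional livers (SD, n = 3). Fdps, which makes farnesyl diphosphate, had a log2 change of -1.52 ± 0.19, Acat2, the thiolase at the entry, of -1.16 and the kinase gene Pmvk of -1.07. Of 5 accessory genes 2 fell and 3 did not pass (median -0.36). Erg28, whose product in yeast tethers the enzymes that remove methyl groups, fell by 0.62 ± 0.13, a call lost with the actin covariate (adjusted p = 0.0572). Marchf6, a ubiquitin ligase that degrades squalene epoxidase, fell by 0.38 on the log2 scale, a call lost in 9 of 25 alternatives. For Marchf6 these were leaving out germ-free animal 3 (adjusted p = 0.139) or 4 (0.0694) or any of conventional animals 6 (0.075), 7 (0.0652) and 8 (0.0734), quantile normalization (0.0588), no variance trend (0.0526), the actin covariate (0.146) and the mean of its probe sets (log2 -0.19, 0.259). Sec14l2, which stimulates squalene epoxidase, stood at a log2 value of -0.36 (adjusted p = 0.0504 by limma) and passed in 6 of 25 alternatives, among them leaving out germ-free animal 1 (0.0156). The membrane protein gene Pgrmc1 had a log2 value of -0.10.

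Several of these enzymes use oxygen and take electrons from cytochrome P450 reductase or cytochrome b5. Of 4 tested genes of electron supply 1 fell, Por, the P450 reductase (log2 change -0.48 ± 0.12, adjusted p = 0.019 by limma). Por missed the threshold when germ-free animal 3 (adjusted p = 0.0758) or 4 (0.0719) or conventional animal 6 (0.0631) was left out, with the actin covariate (0.0841) and with the mean of probe sets (0.0817). Cyb5a had a log2 value of 0.14, Cyb5b of 0.27 and Cyb5r3 of -0.11, none of which passed.

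Among 9 genes of sterol sensing 1 rose, 2 fell and 6 did not pass in germ-free livers (median -0.06). Insig1, itself a target of SREBP-2, fell by 0.97 ± 0.21 on the log2 scale, with a mean signal of 578 ± 190 in germ-free livers, against 1111 ± 53.4 in conventional livers (SD, n = 3). Insig2 fell by 0.51 ± 0.11, a call lost with the actin covariate (adjusted p = 0.0875). Srebf2 had a log2 value of -0.31 ± 0.16 (adjusted p = 0.236 by limma), with a mean signal of 162 ± 35.2 in germ-free livers, against 206 ± 43.2 in conventional livers. Srebf1, which drives mainly fatty acid genes, rose instead (log2 change 2.44 ± 0.38, adjusted p = 0.00105 by limma), with 941 ± 462 in germ-free livers, against 145 ± 31.4 in conventional livers. The escort protein gene Scap had a log2 value of -0.04, the processing proteases Mbtps1 and Mbtps2 of -0.06 and -0.25, and the oxysterol receptors Nr1h2 and Nr1h3 of 0.06 and 0.39. The value of Nr1h3 did not pass (adjusted p = 0.0638; 0.0471 with quantile normalization), and those of Scap and Nr1h2 turned sign under some alternatives, given in the closing values.

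Of 11 tested genes that take up, move, store or use cholesterol 1 rose, 3 fell and 7 did not pass (median -0.20). The sterol exporter genes Abcg5 (log2 -2.10 ± 0.15) and Abcg8 (-1.85 ± 0.18) fell, and so did Lipa, the lysosomal lipase (-0.92 ± 0.11). The Abcg8 value was -2.55 at an offset of 1 and -1.04 at 64. Cyp7a1, which starts the conversion of cholesterol to bile acids, rose by 1.79 ± 0.53 (adjusted p = 0.0386 by limma). Cyp7a1 missed the threshold when germ-free animal 1 (0.0936) or 3 (0.134) or any of conventional animals 6 (0.0561), 7 (0.079) and 8 (0.113) was left out. The same held for a robust prior (adjusted p = 0.113), the actin covariate (0.147) and a fit of all genes without the filter (0.0639). In antibiotic-treated livers 0 genes of these 5 lists passed. Abcg5 lay just short of the threshold with the opposite sign (log2 0.92 ± 0.15, adjusted p = 0.053 by limma). Its mean signal was 138 ± 15.7 in antibiotic-treated livers, against 65.4 ± 10.7 in untreated livers (SD, n = 3). Abcg8 had a log2 value of 0.51 there (adjusted p = 0.333 by limma).

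**Figure D5:**
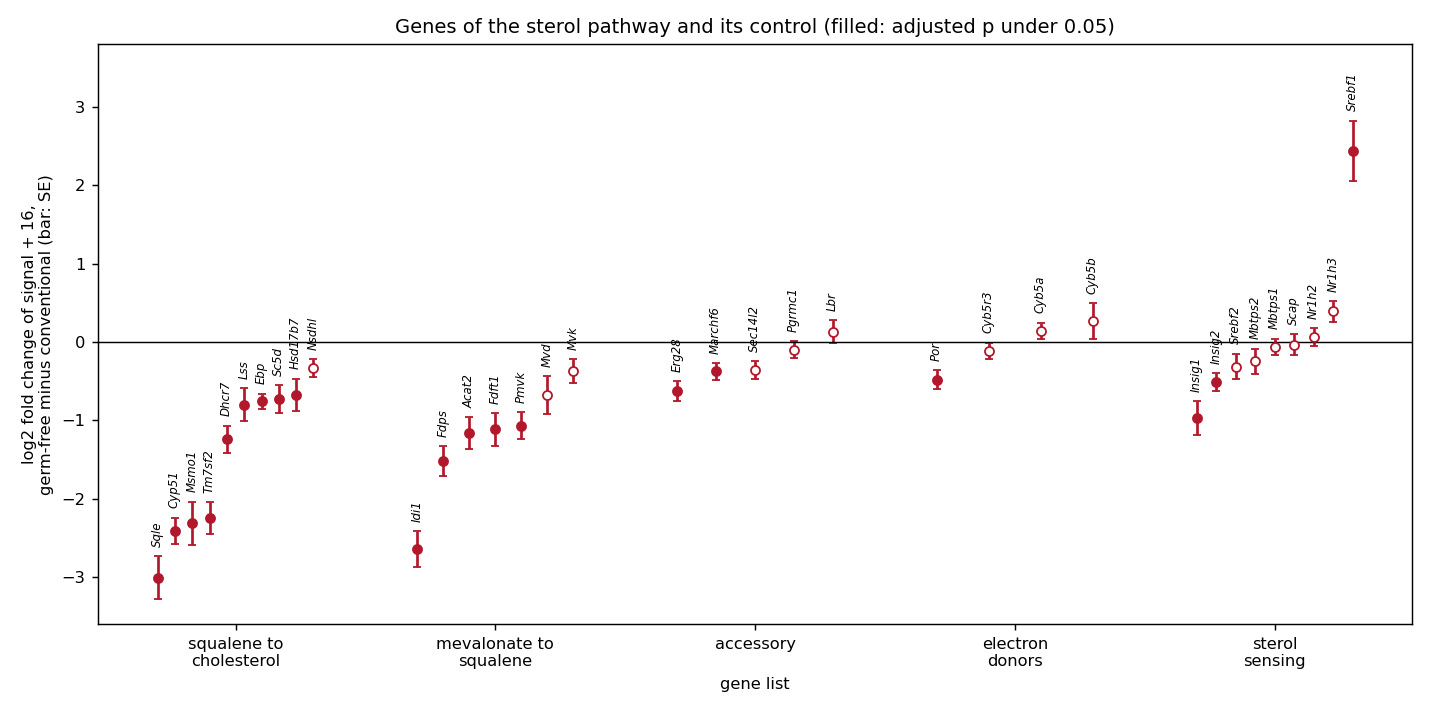
Log2 fold change of signal + 16, germ-free minus conventional, of the 10 genes and of 4 related lists (bars are SE; filled points have an adjusted p under 0.05 over 9300 genes). The 10 genes and those from mevalonate to squalene all lie below 0, the electron donor genes lie between -0.48 (Por) and 0.27 (Cyb5b), and Srebf1 stands alone above 2.

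The genes whose pattern was most like that of the set were found by Pearson correlation with the mean of the 10 genes over the 12 arrays, each strain centred on its own 6 arrays. They were Acss2 (r = 0.994), which makes acetyl-CoA from acetate, Idi1 (0.993), Fdps (0.987), the glutathione transferase gene Gsta3 (0.973) and Phgdh (0.968), which starts the making of serine. The germ-free and conventional animals are among these arrays, and their difference enters r. Over the 6 Han Wistar arrays alone r was 0.948 for Acss2, 0.970 for Idi1, 0.954 for Fdps, 0.875 for Gsta3 and 0.703 for Phgdh. Acss2 averaged 302 ± 63.4 in germ-free livers, against 727 ± 77.4 in conventional livers (log2 change -1.24 ± 0.16, adjusted p = 0.000226 by limma). Gsta3 had a log2 change of -6.69 at an offset of 1 and -2.66 at 64, and Phgdh of -4.53 and -1.49, so their sizes depend on the offset.

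Markers of cell types and of RNA quality were read beside these results. Of 7 hepatocyte markers 0 passed in germ-free livers (median log2 0.23), and their summed signal was 51856 to 58358 in germ-free and 47664 to 52481 in conventional livers. Of 7 tested sinusoidal endothelial markers 6 rose (median 0.96; 6.44% of all genes were called higher), with a summed signal of 1640 to 2317 in germ-free and 819 to 1063 in conventional livers. Of 9 Kupffer cell and macrophage markers 1 fell and 8 did not pass, with sums of 2193 to 2707 in germ-free and 2348 to 3482 in conventional livers. Of 3 red blood cell markers 1 fell and 2 did not pass, with sums of 4592 to 7206 in germ-free and 3417 to 5826 in conventional livers. Of 10 stellate cell and 3 bile duct markers 0 passed, and all 7 lymphocyte markers measured lay under the filter, with sums of 48.9 to 85.1 in germ-free and 44.0 to 67.1 in conventional livers. No marker was listed at 0 on any array. In antibiotic-treated livers 0 markers passed; the endothelial sums were 1653 to 2266 in antibiotic-treated and 1220 to 2302 in untreated livers, and the hepatocyte sums 40343 to 49180 in antibiotic-treated and 30394 to 36270 in untreated livers. RNA breakdown raises the ratio of 3' over 5' signal of the beta-actin control. It averaged 4.39 ± 0.76 in germ-free livers, against 5.37 ± 0.84 in conventional livers, and 2.73 ± 0.13 in antibiotic-treated livers, against 2.55 ± 0.12 in untreated livers (SD, n = 3). An exact permutation test gave a two-sided p of 0.2 for either comparison, where 0.1 is the smallest that 3 against 3 animals allow. The part of endothelial cells in the fall of the 10 genes was not tested. With the actin ratio as a covariate all 10 genes were called lower in germ-free livers, with a median log2 fold change of -1.23. Over all 9300 genes that fit called 606 in either direction, against 1226 without the covariate. The part of RNA quality in the fall of the 10 genes was not tested.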

How the data were processed

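Each array was deposited as linear signal intensity values, 1 per probe set, and MAS5 is the tool named by the submitters' processing notes (no version in the sources used here). Arrays shared a trimmed mean of 100.0 and were not rescaled. Of 31042 probe sets other than controls, 20826 map to 1 symbol in the platform annotation, brought to GRCr8 names through gene identifiers. Probe sets whose mean signal was under the median (19.67) were dropped, and a gene was read from its brightest remaining probe set. The model was limma (3.58.1, R 4.3.3) on log2(signal + 16), with a mean for each of 4 groups and eBayes with a variance trend, so that the groups share 1 estimate of the spread. Benjamini-Hochberg adjustment ran over 9300 genes at a threshold of 0.05, two-sided. A p covers only the spread between these animals, whose number limits the precision (median standard error of a log2 change 0.144). The fit was also run on simulated data with independent normal noise. Such data lack the shared ranking of animals seen here, so that run does not give the error rate in these livers.

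The 10 genes and all lists were chosen with earlier results of these data known. Named were every member, the sterol sensing list, up to 4 genes of each other list by smallest p in the germ-free comparison, and the 5 genes of most like pattern; Lbr, Fdft1, Mvd and Mvk are only plotted. Some listed genes were not analysed here. Alternatives varied the offset (1, 64), filter (none, 75th percentile), normalization (quantile, median centring), arrays used (the 6 of a comparison, each animal left out), prior and trend, array weights, summary of probe sets, and the actin ratio as a covariate.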

Additional observations from a re-analysis of the deposited data

Results flagged for a closer look

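For 6 of the 10 genes the germ-free change and the antibiotic change differed by the test of the difference itself (limma, adjusted p under 0.05, 3 animals in each of 4 groups). The germ-free change minus the antibiotic change was -2.98 for Sqle, -2.20 for Msmo1, -2.08 for Cyp51, -2.01 for Tm7sf2, -1.25 for Dhcr7 and -0.66 for Ebp on the log2 scale. In each of them all 3 germ-free animals were below all 3 conventional animals, while the antibiotic and untreated groups overlapped. Of all genes, 3.25% passed for the difference in that direction, and 14.5% had every germ-free animal below every conventional one. Antibiotic and untreated groups were without overlap for only 18.3% of all genes, so overlap there was the common case.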

How the results depend on the processing

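In the germ-free comparison no sign of the 10 genes turned in any alternative. Each gene was read there from its brightest probe set or the mean of its probe sets. The dimmest Sc5d probe set, with a log2 value of 0.37, is therefore not counted on its own. Changing the filter, prior or trend, fitting only the 6 arrays, or leaving out a Han Wistar animal cannot move these log2 values. Those alternatives bear on the calls and not on the signs. Sqle, Cyp51, Tm7sf2, Msmo1, Ebp and Dhcr7 passed in all 25 alternatives, Sc5d in 22 of 25, Lss in 18 of 24 (under the 75th percentile filter it was not tested) and Hsd17b7 in 14 of 25. Nsdhl passed in 3 of 25, with median centring (adjusted p = 0.0169), the mean of probe sets (0.0167) and the actin covariate (0.045). The number of the 10 genes called lower ran from 6 (without germ-free animal 1 or conventional animal 6) to 9 when 1 animal was left out. The same 6 genes passed for the difference in every alternative run, and Lss also did with the actin covariate (-1.23, adjusted p = 0.0348). Over all genes, 1226 were called in germ-free livers. This became 1901 probe sets when each was tested, 606 genes with the actin covariate, and 654 (without germ-free animal 3) to 1236 when 1 animal was left out. Median centring put the median of all genes at -0.08, against 0.02 as deposited, and the calls at 379 higher and 1122 lower, against 599 and 627. The median of the 10 genes minus that of all genes was -1.04 as deposited and -1.003 with quantile normalization; median centring shifts all genes of an array alike and cannot move it. In the antibiotic comparison 0 of the 10 genes passed in any alternative. Of all genes 2 were called, 1 with an offset of 1, 4 with no filter, 0 with the 75th percentile filter, 6 with a robust prior, 15 with array weights and 0 to 10 when 1 animal was left out. Antibiotic signs of 5 genes turned when 1 animal was left out, with ranges of -0.19 to 0.20 for Sqle, -0.13 to 0.048 for Lss, -0.32 to 0.20 for Msmo1, -0.24 to 0.050 for Hsd17b7 and -0.14 to 0.16 for Dhcr7. With the actin covariate Sqle stood at 0.078 and Lss at 0.067, and with median centring Dhcr7 stood at -0.034. Among other genes, germ-free signs turned for Cyb5b with the actin covariate (-0.13) and for Nr1h2 with median centring (-0.045). They also turned for Nr1h2 when 1 animal was left out (-0.0092 to 0.13) and for Scap (-0.14 to 0.091, and 0.060 with the mean of probe sets). The cause of these changes was not tested. No paired analysis was possible because the groups compared share no animal numbers. Signals near the filter value of 19.67, as those of Sqle in germ-free livers, bound how well a fold change can be sized.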
